A study of Homo sapiens with 17 samples.

Results

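The eCLIP experiment on NUMA1 gave 2 peak lists, each set against the same size-matched input. All 44739 deposited peaks of replicate 1 and all 29762 of replicate 2 were taken. Same-strand peaks with an overlap of 1 nt or more were merged, which gave 62868 NUMA1 regions. The 11 eCLIP libraries of the series together held 389788 peaks in 219602 regions.

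The cells were 293T, a human embryonic kidney line, in every group. They were irradiated on the plate with ultraviolet light of 254 nm at 400 mJ per square cm. Lysates were partly digested with RNase I, and NUMA1 was pulled down with a Bethyl antibody against NUMA1. Protein-RNA complexes were cut from a membrane up to 75 kDa above the protein. The size-matched input is RNA from the same kind of membrane window without the pull-down, and 1 input served both replicates. The other groups were AIFM1, RANGAP1, VIM and ZNF184, with 2 eCLIP libraries each, and RNF219 with 1, each protein with its own input. All were made in the same untreated line, with no knockout or mock pull-down among the samples used here. Replicates can be pooled after the first ligation under the protocol, and the sources used here do not say whether the NUMA1 replicates were. The labels call them replicates of 1 group. Where they were not separate cultures, their spread is technical.

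NUMA1 is a large coiled-coil protein that lies in the nucleus between divisions and gathers at the spindle poles in mitosis, where it ties microtubule minus ends to dynein. It has no classical RNA-binding domain. eCLIP asks where on RNA a protein was close enough for ultraviolet light to join them, and the input shows how much of that RNA is recovered without the antibody. The question of the experiment was thus where NUMA1 was enriched on RNA over its input. The peak lists hold no level of the NUMA1 protein or of cell markers, so neither the antibody target nor the cell line could be checked from them. Sites are given by hg19 position and strand. Genes and transcript parts were not analysed here.

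A peak was called significant when the authors' -log10 p was at least 3 and their log2 fold over input at least 3, which is 8-fold. In replicate 1, 675 peaks passed (1.51% of its peaks, 95% Wilson interval 1.40 to 1.63). In replicate 2, 261 passed (0.877%, 0.777 to 0.989). Most NUMA1 peaks lay modestly above input. The median log2 fold was 1.36 in replicate 1 and 1.34 in replicate 2, and 87.8% and 90.5% of peaks were above input. Many peaks lay close to the fold threshold. Among peaks past the p threshold, the lowest fold inside was 3.012 in replicate 1 and 3.017 in replicate 2, and the highest outside was 2.996 and 2.989. In replicate 1, 330 significant peaks lay within 0.5 above the fold threshold and 583 peaks past the p threshold lay within 0.5 below it. In replicate 2 these numbers were 115 and 168.

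The input had 1.80 times the depth of replicate 1 and 3.18 times that of replicate 2, as the folds show, and total reads per library are unknown. With a single input read, the least read significant peak had 9 eCLIP reads in replicate 1 and 7 in replicate 2. The median significant peak held 14 eCLIP reads in replicate 1 and 10.0 in replicate 2, beside 2 and 3 input reads. Reads could be recovered at 661 and 245 significant peaks. Input was a single read, which cannot be told from 0, at 181 (27.4%) of them in replicate 1 and at 49 in replicate 2. Reads can hold PCR copies, so intervals below cover counting error only. These are bulk libraries, so more cells with an RNA and more of that RNA per cell cannot be told apart.

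The NUMA1 replicates agreed on the general level of peaks and on few of the significant ones. Of the 62868 regions, 10553 (16.8%) had a peak in both replicates. Both replicates were significant in 64 of these, which is 0.606% of the regions with a peak in both. These 64 reproducible regions were 9.71% of the 659 regions significant in replicate 1 and 25.3% of the 253 significant in replicate 2. Each replicate 1 peak with an overlap in replicate 2 was paired with the replicate 2 peak that overlapped it most. Across these 11218 pairs, 88.5% of log2 folds differed by at most 1, and 71.7% of pairs were above input in both replicates. The folds were on opposite sides of input in 1456 pairs. Spearman's rho over the 2255 pairs with at least 10 input reads under both peaks was 0.596. It is given without a p, since peaks are not replicates and both folds share the input.

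**Figure D1:**
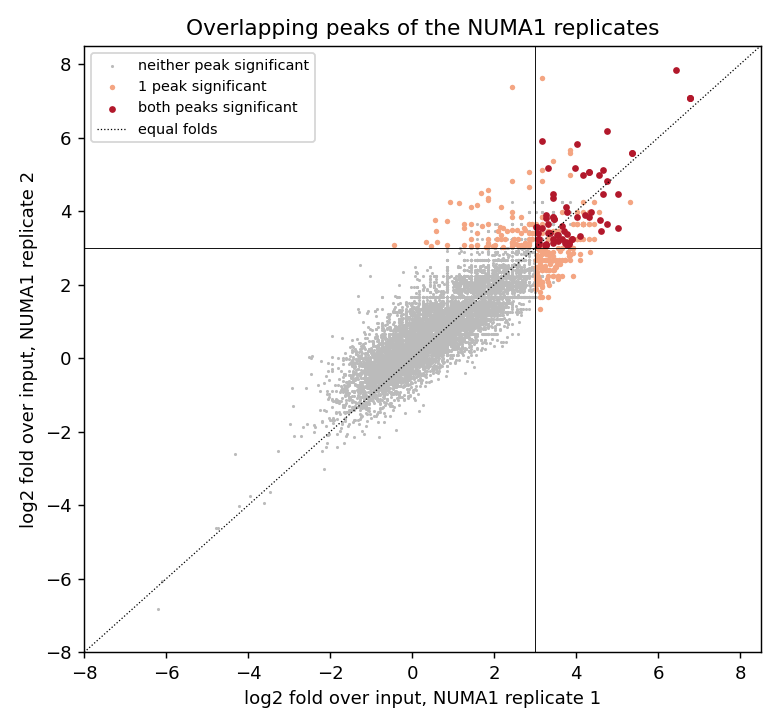
Each point is a replicate 1 peak with the replicate 2 peak that overlaps it most, so a replicate 1 peak has 1 point (11218 pairs). Axes give the authors' log2 fold over input, and thin lines mark the fold threshold of 3. Colours show in how many replicates the peak was significant. Points run along the line of equal folds, and a few replicate 2 peaks above 7 stand far above their replicate 1 partner.

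Where 1 replicate was significant and the other was not, the other was usually also high or had no peak. In replicate 1, 595 regions were significant alone, of which 439 had no replicate 2 peak. At the remaining 156, the replicate 2 log2 fold had a median of 2.80 and ran from 1.34 to 4.25. In replicate 2, 189 regions were significant alone, of which 101 had no replicate 1 peak. At the remaining 88, the replicate 1 fold had a median of 2.37 and ran from -0.43 to 3.85. All 156 replicate 2 partners were above 1 on the log2 scale, whereas 8 of the 88 replicate 1 partners were below it and 1 was below input.

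Among significant peaks, agreement was higher for those with more reads. Of the significant replicate 1 peaks with fewer than 10 eCLIP reads, 9.68% (6 of 62, Wilson interval 4.51 to 19.5) overlapped a replicate 2 peak. With 30 reads or more, 75.0% (45 of 60, 62.8 to 84.2) did. The share also significant in replicate 2 was 1.61% (1 of 62) below 10 reads and 25.0% (15 of 60, 15.8 to 37.2) from 30 reads on. In the other direction, 43.5% of the significant replicate 2 peaks below 10 reads (47 of 108) and 89.3% from 30 reads on (25 of 28) overlapped a replicate 1 peak. The share significant in replicate 1 went from 18.5% to 28.6% with intervals that overlap (12.3 to 26.9 and 15.3 to 47.1). The most read NUMA1 peaks thus mostly had a peak in the other replicate, and most of those peaks were not significant there. Wilson intervals take peaks as independent.

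Joining the pieces of reproducible regions across gaps of at most 10 nt gave 62 reproducible NUMA1 sites on 19 chromosomes. They were 20 to 205 nt long with a median of 65.0 nt, and 32 lay on the plus strand and 30 on the minus strand. The lower of both replicates' log2 folds was at least 4 at 12 sites and between 3 and 4 at 50. Replicate 2 was higher at 32 sites and replicate 1 at 30. The median distance between the replicates was 0.39 on the log2 scale. Where reads could be recovered, the median site held 19.0 eCLIP reads in replicate 1 (9 to 218, 58 sites) and 11 in replicate 2 (7 to 87, 57 sites). The sites were chosen by significance in NUMA1, so their height over other libraries is a description and was not tested.

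The first 2 sites by the lower fold were significant in nearly every library of the series. The site on chromosome 6 (31958260 to 31958279, plus strand) had log2 folds of 6.79 in replicate 1, from at least 123 eCLIP reads, and 7.08 in replicate 2, from at least 85. The other libraries ran from 3.66 in RNF219 to 7.48 in VIM replicate 1, so NUMA1 lay within their range. The site on chromosome 17 (18965394 to 18965452, plus strand) had 6.43 and 7.84, and RNF219 had no peak there. The other 8 libraries ran from 5.69 to 8.93. These heights were not particular to NUMA1.

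Of the first 15 sites, 5 had no deposited peak in any library of another protein. The strongest of these was on chromosome 22 (50183281 to 50183319, minus strand). Its log2 fold was 4.76 in replicate 1, from 15 eCLIP reads beside 1 input read, and 4.84 in replicate 2, from 9 beside 1. The 95% Clopper-Pearson intervals of these folds ran from 2.06 to 10.15 and from 1.99 to 10.29. Both replicates were high, with intervals that overlap almost fully. The site on chromosome 19 (51399439 to 51399510, minus strand) had 4.66 and 5.13, from 14 and 11 eCLIP reads. The site on chromosome 17 (42947093 to 42947168, minus strand) had 4.55 and 4.99, from 13 and 10 reads. Each of these 3 sites rested on 1 input read. Another pair lay on plus strands. The site on chromosome 22 (31973859 to 31973930) had 4.17 and 4.99, from 10 eCLIP reads beside 1 input read in each replicate. The site on chromosome 6 (170685577 to 170685641) had 4.22 from 31 eCLIP reads and 3.89 from 14, each beside 3 input reads, with intervals of 2.54 to 6.57 and 2.05 to 6.33. Of these 5, the last had the most input reads and the narrowest intervals. A missing peak in another library means that none was deposited there, which is not a measured level.

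Among the first 15, a pair of sites had a peak in every library and was significant in NUMA1 alone. On chromosome 11 (10530460 to 10530517, minus strand) the NUMA1 log2 folds were 4.37 and 3.99, from 23 eCLIP reads beside 2 input reads and from 15 beside 3. The other 9 libraries were all lower, at 1.60 and 2.42 in AIFM1, 0.73 and 0.74 in RANGAP1 and -0.51 in RNF219. VIM had 0.09 and -0.84 there, and ZNF184 had -3.43 and -1.83. On chromosome 19 (22877619 to 22877708, minus strand) the NUMA1 folds were 3.96 and 5.17, and the other libraries ran from 1.28 in AIFM1 replicate 1 to 2.96 in ZNF184 replicate 1. The other proteins were thus above input at the chromosome 19 site, and spread on both sides of it at the chromosome 11 site. Both NUMA1 values were above all others at these sites. Their counting intervals were not apart: that of replicate 1 began at 2.36 on chromosome 11, where AIFM1 replicate 2 reached 4.36, and at 2.26 on chromosome 19, where ZNF184 replicate 1 reached 4.09. A single site after the first 15 was of this kind, and it is named here after its values were seen. It lay on chromosome X (102841782 to 102841979, plus strand), with 3.83 from 189 eCLIP reads beside 24 input reads and 3.11 from 60 beside 22. The other libraries ran from -2.37 in ZNF184 replicate 1 to 2.03 in VIM replicate 2.

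The other 6 of the first 15 sites fell between these kinds. On chromosome 6 (139240607 to 139240669, minus strand) NUMA1 had 5.02 and 4.47, from 18 and 7 eCLIP reads beside 1 input read. Of the other libraries only RANGAP1 replicate 1, at 2.37, and ZNF184 replicate 2, at -0.91, had a peak. On chromosome X (47863164 to 47863232, minus strand) NUMA1 had 4.66 and 4.47, and ZNF184 replicate 2 alone had a peak, at 3.20. Neither site was significant outside NUMA1. On chromosome 1 (75210278 to 75210301, plus strand) NUMA1 had 5.37 and 5.57, where RANGAP1 (5.02 and 5.69) and ZNF184 (3.91 and 5.37) were significant in both libraries. On chromosome 11 (77597622 to 77597678, plus strand) NUMA1 had 4.76 and 6.19, and 6 other libraries were significant, the highest at 4.67. On chromosome 11 (32165336 to 32165358, minus strand) NUMA1 had 4.31 and 5.06 and ZNF184 reached 7.40. On chromosome 1 (237766452 to 237766509, plus strand) NUMA1 had 4.02 and 5.84 and the other libraries with a peak ran from 2.76 to 5.45. The last 4 sites were thus shared with other proteins.

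**Figure D2:**
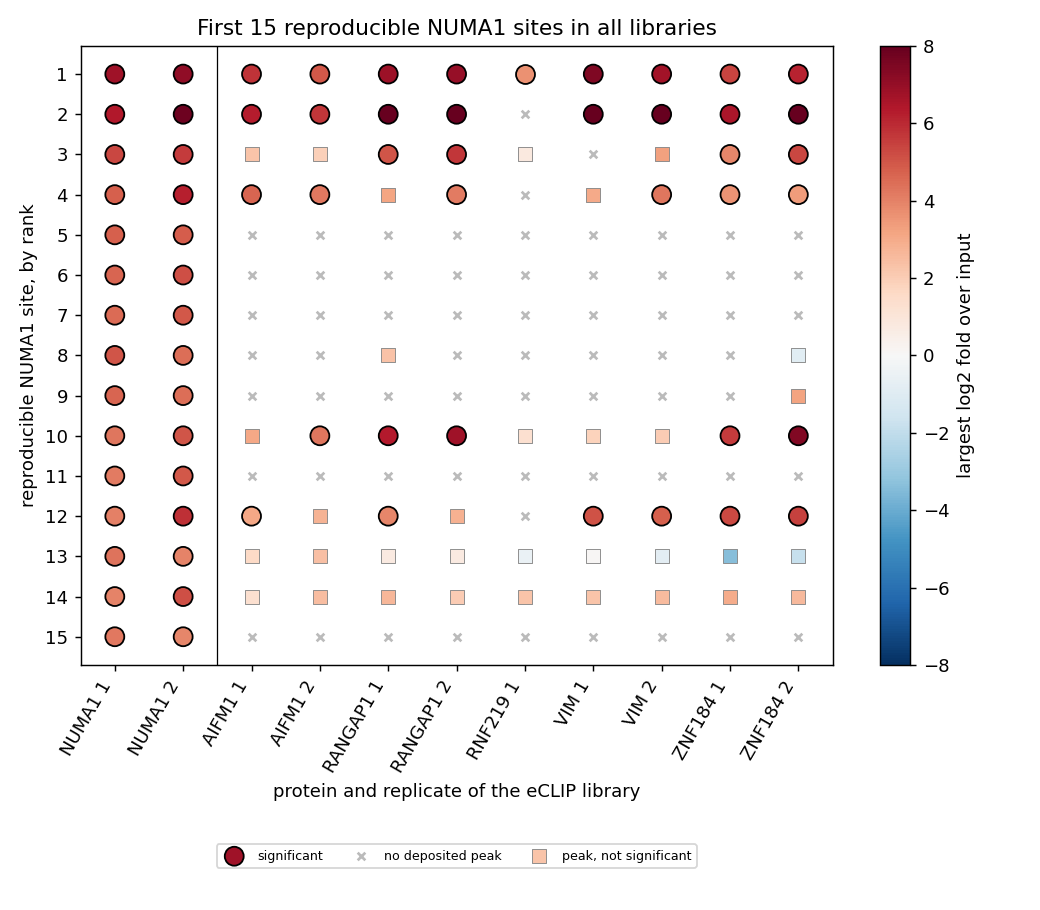
Rows are the first 15 reproducible NUMA1 sites, ranked by the lower of both replicates' largest log2 fold; columns are the 11 eCLIP libraries, and colour gives the largest log2 fold over input. Circles are significant, squares are peaks that were not, and crosses mark libraries with no deposited peak: sites 5, 6, 7, 11 and 15 have crosses in all 9 other libraries, and sites 13 and 14 have squares in all 9.

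Over all 62 sites, 19 had no peak in another library, 25 had a peak but no significant one, and 18 were significant with at least 1 other protein. By protein, 32 sites had a ZNF184 peak, 29 a RANGAP1 peak, 29 a VIM peak, 25 an AIFM1 peak and 8 an RNF219 peak. Counted over the 64 reproducible regions, which are the unit of the background, a VIM peak lay at 31.2% and 46.9% (replicates 1 and 2), against 6.03% and 7.60% of all NUMA1 regions. For AIFM1 the shares were 31.2% and 40.6% against 7.64% and 16.4%, and for ZNF184 45.3% and 48.4% against 18.1% and 18.6%. For RANGAP1 they were 42.2% and 45.3% against 24.2% and 23.1%. RNF219 was near its background, at 15.6% (10 regions) against 10.6%. Significant peaks of VIM lay at 18.8% and 20.3% of these regions, against 0.379% and 0.476% of all NUMA1 regions. For ZNF184 the shares were 18.8% and 20.3% against 0.865% and 1.57%, and for RANGAP1 18.8% and 18.8% against 0.557% and 1.11%. AIFM1 had 14.1% and 14.1% against 0.0318% and 0.0811%, and RNF219 4.69% (3 regions, all in 1 site) against 0.142%. All 64 regions had to hold a peak in both NUMA1 replicates, which only 10553 of the 62868 background regions did. Shares over those 10553 were not computed, so the contrasts are not matched for this. At the sites with a peak of a protein, the median log2 fold, averaged over its libraries, was 3.30 in VIM and 2.34 in RANGAP1. It was 2.09 in AIFM1, 0.96 in ZNF184 and 0.74 in RNF219. Each fold is that of a library's highest peak at a site, and is not corrected for the median over all peaks of a library. That median was 2.27 and 2.20 in VIM, 1.24 and 1.42 in RANGAP1 and 1.17 and 0.68 in AIFM1. In ZNF184 it was 1.22 and 1.29, and in RNF219 1.07. ZNF184 was below input at 12 of its 32 sites and RANGAP1 at 0 of its 29. At 23 sites at least 5 other libraries had a peak, and at 8 of these both NUMA1 replicates were above every other library present.

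The regions that only replicate 2 called were shared with VIM far more than those that only replicate 1 called. Of the 189 regions significant in replicate 2 only, 24.3% (46, Wilson interval 18.8 to 30.9) were significant in VIM replicate 1 and 25.4% (48, 19.7 to 32.0) in VIM replicate 2. Of the 595 regions significant in replicate 1 only, 0.504% (3, 0.172 to 1.47) and 0.672% (4, 0.262 to 1.72) were. The same held for ZNF184 replicate 2, at 21.7% (16.4 to 28.1) against 0.672%, and less for ZNF184 replicate 1, at 7.94% against 0.336%. In RANGAP1 the shares were 2.65% and 4.23% against 0.504% and 1.18%, and in AIFM1 1.06% and 4.23% against 0 and 0.168%. RNF219 had 0 of 189 and 0 of 595, which allow shares of up to 1.59% and 0.504% (3 counts of the total). Over all NUMA1 regions, VIM was significant at 0.379% and 0.476% and ZNF184 at 0.865% and 1.57%. RANGAP1 was significant at 0.557% and 1.11% of them, AIFM1 at 0.0318% and 0.0811%, and RNF219 at 0.142%. This background was not matched for a peak in both NUMA1 replicates, which 88 of the 189 and 156 of the 595 regions had. The Wilson intervals of the replicate 1 only shares held this background in each of the 9 libraries, and those of the replicate 2 only shares lay above it in each library except RNF219. The replicate 2 regions also had a peak of any kind more often, as in AIFM1 replicate 1, with 34.9% against 4.20%. The difference between the replicates was not tested, because there is 1 library of each.

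**Figure D3:**
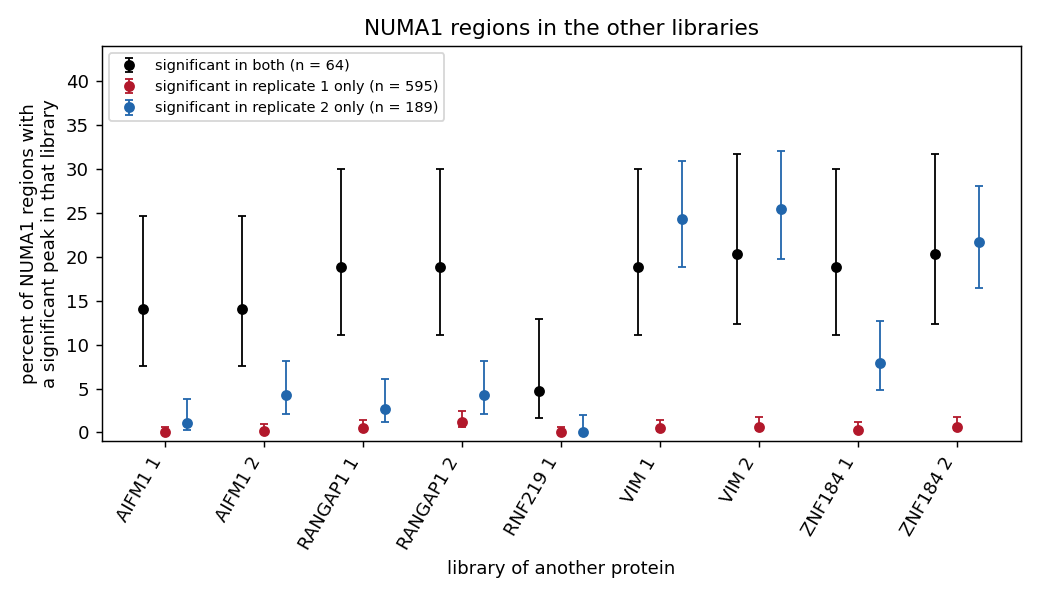
For each library of another protein, points give the percent of NUMA1 regions with a significant peak there, for regions significant in both NUMA1 replicates (n = 64), in replicate 1 only (n = 595) or in replicate 2 only (n = 189); bars are 95% Wilson intervals, which treat regions as independent. Regions of replicate 2 only reach 24.3% and 25.4% in the VIM libraries, where those of replicate 1 only stay below 1%.

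Among regions with 1 significant replicate and a peak in the other, those with the largest distance between replicates were all high in replicate 2. On chromosome 8 (139815626 to 139815703, minus strand) the log2 fold was 2.43 in replicate 1, from 3 eCLIP reads beside 1 input read, and 7.39 in replicate 2, from at least 53 beside at least 1. VIM had 3.82 and 2.44 there. On chromosome 8 (28387965 to 28388023, plus strand) NUMA1 had 3.17, from 5 reads beside 1, and 7.62, from at least 62. VIM had 5.15 and 3.74. On chromosome 3 (150905884 to 150905939, plus strand) NUMA1 had -0.43 and 3.07, the latter from 53 eCLIP reads beside 20 input reads, and VIM had 4.29 and 2.66. At all 3 regions at least 1 VIM library and ZNF184 replicate 2 were significant.

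Some leading regions had no peak in the other replicate at all. The highest regions of replicate 1 alone were on chromosome 22 (19189872 to 19189967, minus strand) and chromosome X (149107250 to 149107283, plus strand), each at 5.66 from 28 eCLIP reads beside 1 input read. No other library had a peak at the first, and at the second only ZNF184 replicate 1 did, at 2.03. In replicate 2, a region on chromosome 6 (53084121 to 53084161, plus strand) reached 7.22 with no replicate 1 peak, and VIM had 6.61 and 6.66 there beside -1.23 and -2.43 in ZNF184. A region on chromosome 1 (148241532 to 148241572, plus strand) reached 6.70 from at least 164 eCLIP reads with no replicate 1 peak, and VIM had 7.74 and 7.18 beside 0.99 and -0.06 in ZNF184. VIM was thus significant at both of these replicate 2 regions and ZNF184 at neither. These 4 regions were named after their values were seen.

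Significant NUMA1 peaks were mostly scattered. In both replicates together they formed 835 sites, and joining sites within 5 kb on the same strand gave 762 loci. Of these, 699 held 1 site, 53 held 2 and 10 held 3, the highest number. Most of the 10 rested on replicate 1. Replicate 1 alone supplied the significant peaks at 5 of them, among them a locus on chromosome 17 (79544402 to 79547628, minus strand). It had 3 significant peaks up to 4.66 in replicate 1 and a single peak at 1.18 in replicate 2. A locus on chromosome 8 (48746059 to 48746281, minus strand) had 3 significant peaks in replicate 1, from 3.31 to 3.66, and no peak in any other library, replicate 2 included. Replicate 1 also had 3 significant peaks on chromosome X (149107250 to 149108857, plus strand), where replicate 2 had 1 peak at 2.40. It had 3 on chromosome 16 (2805297 to 2806915, plus strand), where replicate 2 reached 2.18, and 3 on chromosome 13 (25464938 to 25466126, minus strand), where replicate 2 had 1 peak at 3.25 that was not significant. Both replicates contributed at 4 of the 10. On chromosome 8 (24775671 to 24776004, plus strand) each replicate had 2 significant peaks, with highest folds of 4.66 and 4.47, and no library of another protein was significant. On chromosome 8 (43036353 to 43036996, plus strand) replicate 1 had 3 and replicate 2 had 1, with highest folds of 4.31 and 3.84, and again no other library was significant. On chromosome X (148614189 to 148616477, minus strand) replicate 1 had 2 and replicate 2 had 1. On chromosome 12 (48138691 to 48147096, minus strand) replicate 1 had 3 and replicate 2 had 1, while VIM replicate 2 and ZNF184 replicate 2 had 5 and 8. VIM replicate 1 and ZNF184 replicate 1 had no peak at that locus. The last locus, on chromosome 21 (9825848 to 9826248, plus strand), had 3 significant peaks in replicate 2 up to 4.70, and replicate 1 reached 0.93. There both VIM libraries had 3 significant peaks, up to 7.42 and 7.68.

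Counted by peaks and not by sites, the largest cluster was 1 stretch on chromosome 11. Peaks of all libraries ran there from 65190271 to 65212970 on the plus strand, over 22700 nt. NUMA1 had 87 peaks in replicate 1 and 69 in replicate 2. Of these, 9 and 1 were significant, all between 65190331 and 65190505. They lie side by side, so that the stretch counts fewer than 3 sites. In replicate 1 the median log2 fold was 2.54 over 31 peaks in the first 2.5 kb, 0.96 over 21 peaks from 2.5 to 15 kb and 1.0 over 35 peaks beyond. In replicate 2 it was 1.59 over 21 peaks, 0.54 over 23 and 0.70 over 25. Both replicates were highest at the 5′ end, and replicate 1 was higher than replicate 2 in each stretch. Spearman's rho of fold with distance from the first peak was -0.69 and -0.63, across peaks of 1 library, which are not independent.

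VIM was also highest at the 5′ end, with medians of 2.05 (13 peaks), 0.86 (15) and 0.76 (12) over the 3 stretches in replicate 1. In VIM replicate 2 they were 3.39 (17), 1.13 (15) and 1.23 (18). RANGAP1 had 1.95, 1.53 and 1.38 in replicate 1, and 2.11, 1.66 and 1.58 in replicate 2. ZNF184 was highest in the middle stretch, at 2.07 and 2.90, and AIFM1 replicate 1 had 0.43, 1.02 and 0.76. Significant peaks were thus shared: VIM had 4 and 13, all in the first 2.5 kb, and ZNF184 had 3 and 20 over the whole length. RANGAP1 had 0 and 1, and AIFM1 and RNF219 had 0. Over 36 loci with at least 20 peaks in each NUMA1 replicate, rho with distance was below 0 in both replicates at 16, above 0 in both at 12, and of opposite sign at 8. The chromosome 11 stretch had the second lowest mean rho, after the plus strand of the mitochondrial chromosome (-0.76 and -0.66). Lower folds with distance were thus not a general feature of long NUMA1 loci.

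**Figure D4:**
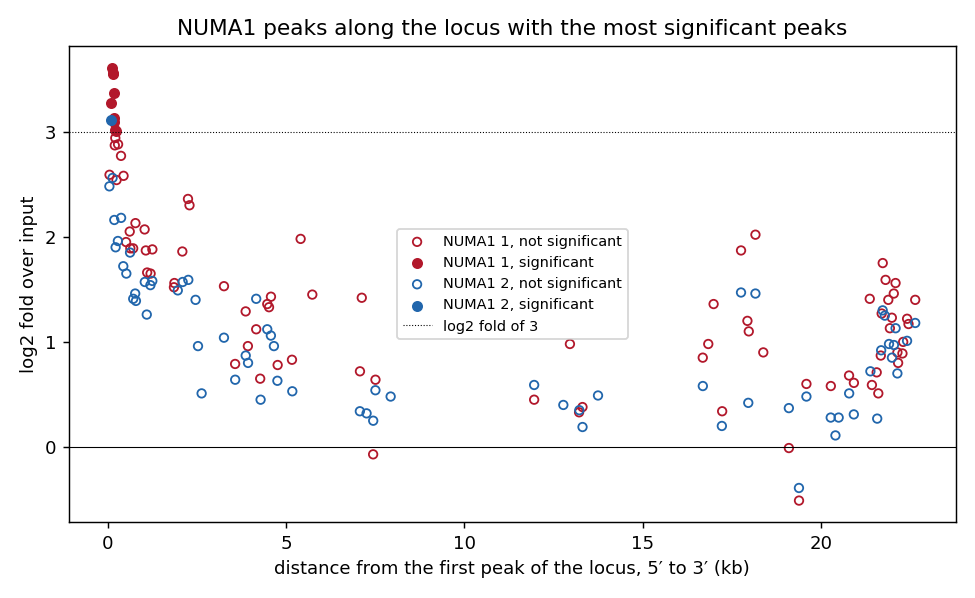
Each circle is a NUMA1 peak of the chromosome 11 stretch, at its distance in kb from the first peak (x axis, 5′ to 3′) and the authors' log2 fold over input (y axis); red is replicate 1, blue replicate 2, and filled circles are significant. All 10 significant peaks lie within the first kb, and beyond 2.5 kb the highest peak of either replicate is at 2.02.

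Within long loci, significant NUMA1 peaks lay along the whole length. Loci were made from the peaks of all libraries within 5 kb on the same strand, without the mitochondrial chromosome, and the 8894 of at least 5 kb were cut into 5 equal parts from 5′ to 3′. The loci are runs of peaks, not annotated transcripts. In replicate 1 the share of significant peaks was 1.66%, 1.67%, 1.68%, 1.30% and 1.24% from the first part to the last, over 487 significant peaks. In replicate 2 it was 0.518%, 0.536%, 0.605%, 0.398% and 0.384%, over 105. The 95% Wilson intervals of the first and last part were 1.41 to 1.95 and 1.02 to 1.51 in replicate 1, and 0.365 to 0.734 and 0.249 to 0.593 in replicate 2, and they overlapped in both. The last part was lowest in both replicates, and overlap of intervals does not show equal shares. With peaks joined within 2 kb instead, first and last part had 2.01% and 1.29% in replicate 1. In replicate 2 they then had 0.462% and 0.448%. At 5 kb, the first part held 29.6% and 29.5% of the significant NUMA1 peaks. RANGAP1 had shares of 2.73% and 4.67% in the first part and 0.671% and 1.06% in the last, and VIM 6.08% and 5.02% against 2.56% and 2.59%.

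The step in median log2 fold from the last part to the first was 0.12 and 0.09 in the NUMA1 replicates. VIM had 0.32 and 0.30 and RANGAP1 had 0.22 and 0.25. ZNF184 had -0.04 and -0.10, AIFM1 had -0.26 and 0.00, and RNF219 had -0.26. NUMA1 lay inside the range of the others. NUMA1 averaged 0.11 ± 0.02 (SD, n = 2) and the other libraries 0.05 ± 0.23 (SD, n = 9), with a 2-sided exact permutation p of 0.764 over 55 choices of 2 libraries, where the smallest possible is 0.0182. A difference from the other proteins was therefore not shown.

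**Figure D5:**
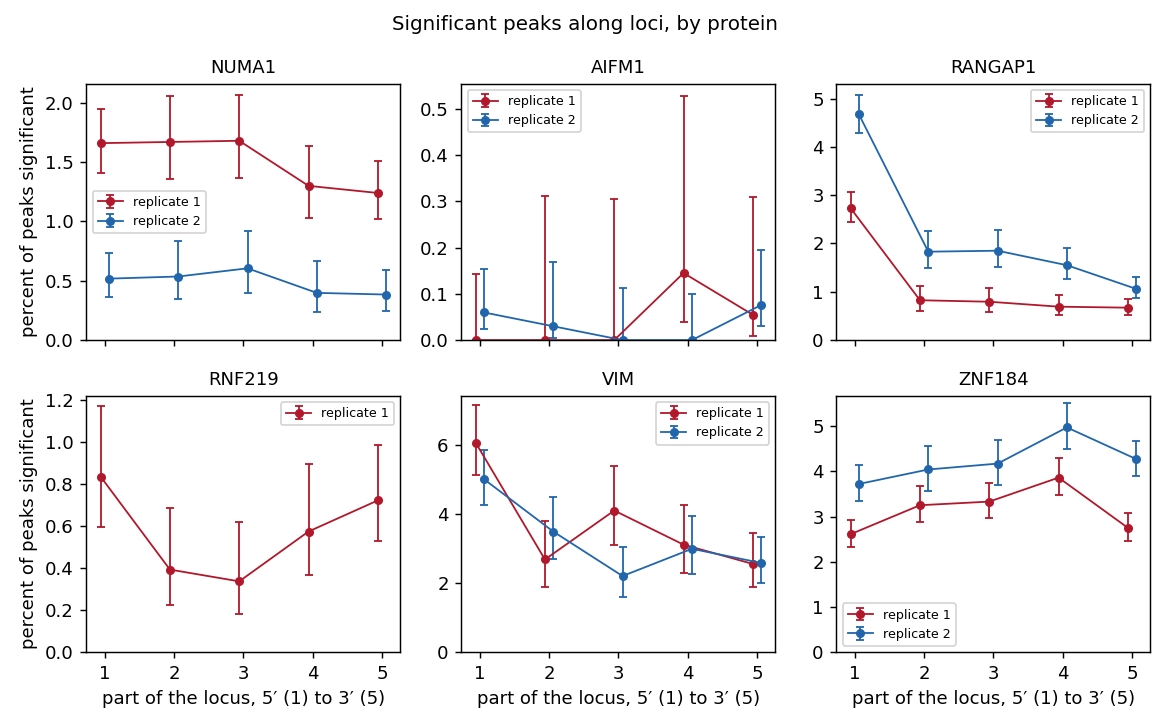
Percent of deposited peaks that were significant (y axis, scaled by panel) in 5 equal parts of loci of at least 5 kb, from the 5′ end (1) to the 3′ end (5), with 1 panel for each protein and colours for replicates; bars are 95% Wilson intervals. NUMA1 shares run from 1.24% to 1.68% in replicate 1 and from 0.384% to 0.605% in replicate 2, while RANGAP1 has 2.73% and 4.67% in part 1 beside 0.825% and 1.83% in part 2.

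The median width of significant NUMA1 peaks lay inside the range of the other libraries. It was 51.0 nt in replicate 1 and 42.0 nt in replicate 2, beside 33.0 nt for the peaks of either replicate that were not significant. The other libraries ran from 24.5 nt in AIFM1 replicate 1 to 58.0 nt in RANGAP1 replicate 2. The NUMA1 mean of 46.5 ± 6.36 nt (SD, n = 2) was 5.67 nt above that of the other libraries, 40.8 ± 11.4 nt (SD, n = 9), with a 2-sided exact permutation p of 0.545 over 55 choices. The difference was 1.17 nt without NUMA1 replicate 1 and 10.2 nt without replicate 2. The plus strand held 52.3% and 55.6% of the significant peaks and 51.1% and 50.4% of all peaks.

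To compare NUMA1 with the other proteins without choosing sites by NUMA1, all loci with at least 3 peaks in each of the 11 libraries were taken, 452 in number. Each library's median log2 fold in a locus was set against the median of all its peaks. Both NUMA1 replicates were above all other libraries at 2 loci (0.442%) and below all of them at 8 (1.77%). With each library centred on the compared loci, these counts became 13 and 10. If all 55 choices of 2 libraries were equally likely, a given pair would be above all others at 1 in 55 loci. The same holds for below. The shares of 0.442% and 1.77% did not exceed this, and the counts of 13 and 10 did. The choices were not equally likely, since replicates of 1 protein are not independent. Between the NUMA1 replicates, Spearman's rho over these loci was 0.80. No conclusion is therefore drawn from 1 in 55. By 2-sided exact permutation, 11 loci had an unadjusted p below 0.05, and 0 did after Benjamini-Hochberg adjustment, where the lowest was 0.970. With 55 choices no locus can fall below 0.0182 before adjustment. An adjusted p below 0.05 would need many loci at this floor together, so it cannot decide on a single locus. At the same loci, libraries did not overlap with the rest at 86 loci for VIM, 65 for ZNF184, 42 for AIFM1 and 32 for RANGAP1, against 10 for NUMA1. These numbers are descriptions.

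The distance from NUMA1 to the nearest other library was 0.00 to 0.64 at the 8 low loci, and 0.13 and 0.15 at the pair of high ones. The 4 low loci with the widest distances are given here. On chromosome 11 (62640674 to 62656187, plus strand) the centred log2 folds were -1.57 and -1.45 in NUMA1, from 9 and 5 peaks, and -0.81 to 1.20 in the other libraries. On chromosome 22 (38201242 to 38204034, plus strand) they were -1.22 and -1.05, and -0.47 to 1.60 elsewhere. On chromosome X (153607621 to 153609819, plus strand) they were -2.20 and -1.34, and -0.85 to 0.21 elsewhere. On chromosome 7 (100277162 to 100287025, minus strand) they were -0.88 and -1.06, and -0.49 to 0.35 elsewhere. At all 4, both NUMA1 replicates lay below every other library by at least 0.40. The adjusted exact permutation p was 0.970, which could not have been low for a few loci. The pair above the others lay on chromosome 20 (57226340 to 57227747, plus strand), at 0.61 and 0.38 against at most 0.23, and on chromosome 17 (34851933 to 34890870, minus strand), at 0.19 and 0.13 against at most 0.00.

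The same comparison over single merged regions with a peak in all 11 libraries used 679 regions. NUMA1 was above all others at 12 (1.77%) and below at 6 (0.884%), or at 27 and 5 with each library centred on these regions. After adjustment, 0 had an exact permutation p below 0.05 (lowest 0.939), and 14 did before. The same floor holds here, so the adjusted p cannot decide on a single region. The widest distance above was at the chromosome 11 site described before (10530445 to 10530544, minus strand), at 2.72 and 2.64 against at most 0.50. The next was on chromosome X (102841782 to 102841987, plus strand), at 2.24 and 1.63 against at most -0.16, and held a reproducible site. The third was on the mitochondrial chromosome (1826 to 1938, plus strand), at 0.01 and -0.43 against at most -1.99, where NUMA1 stood near its own median and the others far below theirs. The widest distance below was on chromosome 8 (37556794 to 37556845, plus strand), at -2.09 and -2.02 against at least -0.76.

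NUMA1 peaks could also lie far below input. A log2 fold of -3 or lower occurred at 15 peaks of replicate 1 and 9 of replicate 2, which formed 12 sites, and 7 sites had it in both replicates. The lowest was on chromosome 15 (65588442 to 65588486, plus strand), at -6.21 and -7.11, or 74.0-fold and 138-fold below input. The other libraries with a peak there ran from -5.74 to -0.98, so both NUMA1 replicates were lowest. At the second site, on chromosome 14 (50329295 to 50329417, minus strand), NUMA1 had -6.11 and -6.05, and RNF219 (-6.39) and VIM replicate 2 (-6.20) were lower. The third, on chromosome 14 (50053457 to 50053592, plus strand), had -4.78 and -4.61 and was below input in all 9 other libraries, down to -5.42. Low folds at these sites were not particular to NUMA1.

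The other 4 low sites lay on chromosome 1, minus strand, and chromosome 15. On chromosome 1 they were at 45187477 to 45187512 (-4.21 and -4.03), 45285579 to 45285615 (-3.62 and -3.94) and 235291142 to 235291176 (-3.46 and -3.63). On chromosome 15 (65597069 to 65597112, plus strand) NUMA1 had -3.95 and -3.76. The ZNF184 libraries had -0.76 and -0.14 at that site, -1.82 and -0.98 at the lowest site, and 0.02 and 0.07 at 45285579 to 45285615, where RANGAP1 had -4.58 and -3.50. ZNF184 thus had the highest fold of all libraries with a peak at these 3 sites. The threshold of -3 was chosen after the values were seen.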

How the data were processed

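The members and lists here were chosen with earlier results of these data known. Per the submitters' processing notes, reads were handled with cutadapt, STAR, GATK, Picard and SAMtools on hg19. The sources used here name no versions, peak caller or removal of duplicates. The authors deposited 1 peak list per eCLIP library and none for the inputs, with their -log10 p against the size-matched input (0 below input, at most 400) and their log2 fold over it. These peak values belong to the authors throughout.

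Reads were recovered from the deposited folds, which are whole-number ratios times the depth ratio of input to eCLIP. In the NUMA1 replicates 97.0% and 95.9% of folds matched such a ratio to within 1e-07, and 95.3% and 91.2% of p-values between 0 and 400 settled both numbers to within 0.005 on the log10 scale. Elsewhere only the least numbers with that ratio are known ("at least"). An input of 1 read cannot be told from 0. Total reads are unknown. Reads can hold PCR copies, so all intervals cover counting error only. Peaks are taken as independent, although abutting pieces are not.

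Python 3.11.15 with pandas 2.3.3, NumPy 2.4.6 and SciPy 1.17.1 was used, and the calculations were tested on simulated data. Libraries were compared by 2-sided exact permutation over 55 choices of 2 from 11. Named sites were the first 15 reproducible sites by the lower of both folds, up to 10 loci with at least 3 significant sites, and the 3 regions with the widest distance between replicates. The rule's NUMA1 gene, transcript parts, GC content and gene lists needed an hg19 annotation and were not analysed here. The locus analyses, low sites and read bins were chosen after seeing the data.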

Additional observations from a re-analysis of the deposited data

Results flagged for a closer look

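At 6 of the 62 reproducible sites both NUMA1 replicates were above input and both replicates of another protein below it. NUMA1 was required to be high at these sites, and the difference between the proteins was not tested. Against ZNF184, the mean log2 fold of NUMA1 was higher by 6.81 on chromosome 11 (10530460 to 10530517, minus strand; 4.18 against -2.63). The difference was 5.71 on chromosome X (102841782 to 102841979, plus strand; 3.47 against -2.25). It was 4.39 on chromosome 14 (73569958 to 73570117, plus strand; 3.58 against -0.81). It was 4.21 on chromosome 11 (35684950 to 35685137, plus strand; 3.63 against -0.57). On chromosome 8 (24775671 to 24775875, plus strand) it was 3.71, at 3.46 against -0.26, where ZNF184 replicate 1 was at -0.01 and so next to input. Against AIFM1, the difference was 3.87 on chromosome 11 (65190302 to 65190365, plus strand; 3.19 against -0.68), at the 5′ end of the stretch with the most significant NUMA1 peaks. Groups of 2 libraries were too small for a test of single outlying libraries.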

How the results depend on the processing

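Counts of significant peaks depended on the thresholds. At a log2 fold of at least 2, 1865 and 645 peaks were significant in replicates 1 and 2 and 243 regions in both. At a log2 fold of at least 4 the numbers were 210, 86 and 14, and at a -log10 p of at least 5 they were 247, 112 and 29. Joining gaps of at most 10 nt, or asking for 50% overlap of the shorter peak, gave 62 reproducible regions. Spearman's rho between replicates was 0.856 over all pairs and 0.596 with at least 10 input reads; the cause was not tested. Replicate numbers are shared between proteins. With the replicate block, in which libraries were exchanged within a replicate number (30 choices), the width difference stayed 5.67 nt (exact permutation p = 0.567). Without either NUMA1 replicate it was 1.17 to 10.2 nt, where 10 choices allow no p below 0.100, and a log2 fold of at least 2 or 4 gave 6.17 and 7.28 nt. The step along loci was 0.06 above the other proteins, 0.09 and 0.04 with loci joined at 2 kb and 10 kb, and had an exact permutation p of 0.800 with the replicate block. Those joins gave 5 loci above all other libraries each, against 2, and 8 below. Reproducible regions need both replicates, so none could be left out. Transcript parts, GC content and gene lists were not run. A few reads set the fold of most NUMA1 sites.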

Other observations

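Significant NUMA1 peaks were found on every autosome and on chromosome X in both replicates. The share of significant peaks ran from 0.812% on chromosome 18 to 2.54% on chromosome 13 in replicate 1, and from 0.233% on chromosome 13 to 1.60% on chromosome 6 in replicate 2. Chromosome 13 was thus highest in one replicate (16 of 629 peaks) and lowest in the other (1 of 429). On the mitochondrial chromosome 0 of 164 and 0 of 139 peaks were significant, which allows shares of up to 1.83% and 2.16% (3 counts of the total). NUMA1 nevertheless had its largest set of saturated p-values there. On its plus strand, 36 peaks of replicate 1 (693 to 3174) and 15 of replicate 2 (694 to 2868) had a -log10 p at the ceiling of 400, with log2 folds of 0.95 to 2.86 and 0.79 to 2.61. These peaks are deep and stayed under the fold threshold.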
